A study of Mus musculus with 16 samples.

Results

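The Ms4a genes encode small proteins that cross the plasma membrane 4 times and sit beside immune receptors, and most of them lie in a single cluster on chromosome 19 of the mouse. Ms4a1 encodes CD20 of B cells, Ms4a2 the beta chain of the high-affinity IgE receptor of mast cells, and several of the remaining members are known from monocytes, macrophages and T cells. Here 9 members of the cluster, Ms4a1, Ms4a4a, Ms4a4b, Ms4a4c, Ms4a6b, Ms4a6c, Ms4a6d, Ms4a7 and Ms4a8a, were followed by name among the 55604 gene identifiers of the count files. GENCODE lists 19 Ms4a genes on this chromosome over 678.6 kb of GRCm38, and the 9 members span 537.4 kb of it.

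RNA was measured in 8 libraries of tumor-associated macrophages (TAMs) from the peritoneal cavity of C57BL/6 mice bearing ID8, a mouse ovarian cancer line. Macrophages were separated with magnetic beads by surface Tim-4, a phosphatidylserine receptor of resident peritoneal macrophages, into Tim-4+ TAMs (n = 4) and, from the remaining cells by F4/80 beads, Tim-4- TAMs (n = 4). According to the study's methods the mice were young adult females. The labels name no altered allele for either subset, and the tag Tim4+ names the sorted protein and not a genotype. The labels pair the subsets under the numbers 793, 784, 783 and 779 without saying whether a number is 1 mouse, so the p-values measure the spread between these pairs.

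Totals ranged from 53527928 to 57768202 counts per library in Tim-4+ TAMs and from 55618306 to 69594245 in the Tim-4- subset, and 3 counts, the limit set by a count of 0, came to at most 0.056 CPM by total counts. All other CPM values are counts scaled to library size with TMM factors. Timd4, which encodes Tim-4, had 28683 to 87151 counts in Tim-4+ TAMs and 128 to 5669 counts in the Tim-4- subset. Of 8 macrophage markers, 5 were higher and 1 was lower in Tim-4+ TAMs, with a summed level of 43263 to 55698 CPM in the Tim-4+ subset and 20866 to 33359 CPM in the Tim-4- subset. All 8 tumor and mesothelial markers were lower in Tim-4+ TAMs, summing to 103 to 382 CPM in the Tim-4+ subset and to 410 to 1908 CPM in the Tim-4- subset, and their part in the results below was not tested. Of 7 mast cell and basophil markers tested 1 was higher and 3 were lower, of 8 dendritic cell markers tested 1 was higher and 1 lower, and neither of the 2 granulocyte markers tested passed.

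Promoters of some members are shown first, and their part in the results below was not tested. RefSeq held 8 promoters for 7 of the 9 members (GRCm38.p6), and each line below gives the 250 bases before the RefSeq start, 5′ to 3′ on the strand of the gene. Ms4a4b (chr19:11443308-11443557, plus strand) and Ms4a4c (chr19:11407411-11407660, plus strand) are the closest copies among the 9 members. Capitals mark the PU-box GAGGAA, a motif of the myeloid factor PU.1, at 64 and 61 bases before the start.
Ms4a4b: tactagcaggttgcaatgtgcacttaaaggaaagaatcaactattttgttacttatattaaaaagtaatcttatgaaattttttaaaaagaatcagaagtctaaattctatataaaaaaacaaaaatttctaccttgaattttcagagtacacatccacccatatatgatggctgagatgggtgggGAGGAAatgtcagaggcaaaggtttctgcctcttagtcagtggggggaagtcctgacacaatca
Ms4a4c: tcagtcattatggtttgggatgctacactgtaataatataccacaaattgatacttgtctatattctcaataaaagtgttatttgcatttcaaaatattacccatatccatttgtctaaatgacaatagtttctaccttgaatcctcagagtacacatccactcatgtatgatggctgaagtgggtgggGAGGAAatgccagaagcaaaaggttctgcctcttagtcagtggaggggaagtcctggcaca

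The best alignment of this pair held 185 identical bases, with a longest shared run of 20 bases. Ms4a6b (chr19:11518309-11518558, plus strand) and Ms4a6c (chr19:11469118-11469367, plus strand) had 149 identical bases. Here capitals mark the longest run that the pair shares, 48 bases.
Ms4a6b: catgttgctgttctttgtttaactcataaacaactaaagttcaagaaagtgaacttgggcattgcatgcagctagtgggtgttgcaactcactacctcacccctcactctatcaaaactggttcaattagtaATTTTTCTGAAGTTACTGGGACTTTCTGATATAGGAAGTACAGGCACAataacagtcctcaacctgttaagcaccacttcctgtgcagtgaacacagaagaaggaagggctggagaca
Ms4a6c: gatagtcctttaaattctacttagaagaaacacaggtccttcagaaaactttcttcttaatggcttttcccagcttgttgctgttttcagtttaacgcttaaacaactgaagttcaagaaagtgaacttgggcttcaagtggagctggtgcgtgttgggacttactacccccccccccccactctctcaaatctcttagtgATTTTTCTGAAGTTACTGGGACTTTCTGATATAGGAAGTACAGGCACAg

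The other 26 pairs of promoters had 123 to 141 identical bases (median 129) and no shared run above 9 bases. Ms4a8a (chr19:11081104-11081353, minus strand) rose in Tim-4+ TAMs, and Ms4a7 (chr19:11334696-11334945, minus strand, the more downstream of its 2 RefSeq promoters) fell. The other Ms4a7 promoter (chr19:11336147-11336396, minus strand) held no AP-1 motif, TGANTCA, and which start is used was not measured. The 2 shown here each held 1, in capitals, at 244 and 81 bases before the start.
Ms4a8a: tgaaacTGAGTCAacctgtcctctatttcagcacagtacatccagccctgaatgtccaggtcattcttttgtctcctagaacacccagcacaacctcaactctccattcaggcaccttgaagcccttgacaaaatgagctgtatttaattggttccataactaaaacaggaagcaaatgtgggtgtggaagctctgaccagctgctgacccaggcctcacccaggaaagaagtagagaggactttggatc
Ms4a7: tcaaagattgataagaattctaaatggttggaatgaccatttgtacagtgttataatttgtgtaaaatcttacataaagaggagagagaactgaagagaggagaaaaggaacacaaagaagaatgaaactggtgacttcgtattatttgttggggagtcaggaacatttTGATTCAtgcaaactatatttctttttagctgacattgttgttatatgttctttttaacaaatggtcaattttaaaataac

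On both strands of the same window, the PU-box was found in 23.3% of 32851 promoters and in 2 of the 8 member promoters. The AP-1 motif was found in 6.7% of all promoters and in 2 of the 8. The GATA motif AGATAA, held by 3281 of all promoters, and the interferon element, GAAA and GAAA with 2 bases between them, held by 3.0%, were found in 0 of the 8. These matches are letters only, and binding was not measured.

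Members of the cluster did not move as a block between the subsets. All 9 members passed the filter of at least 10 counts in at least 4 libraries. With the pair as a block, 1 member, Ms4a8a, was higher in Tim-4+ TAMs, 3 members, Ms4a4c, Ms4a6b and Ms4a7, were lower, and 5 did not pass (edgeR quasi-likelihood test, Benjamini-Hochberg adjusted p under 0.05 over 16861 genes). Of all genes tested, 8.97% were higher and 8.43% were lower, 17.4% together. With a change of at least 2-fold as well, Ms4a8a was the 1 member higher (3.8% of all genes) and Ms4a4c the 1 member lower (5.79% of all genes). The median log2 fold change, Tim-4+ minus Tim-4-, was -0.63 over the 9 members and -0.001 over all genes tested. Without the pair term in edgeR, 0 members passed in either direction, with 1 higher (Ms4a8a) and 2 lower (Ms4a4b and Ms4a6b) at an unadjusted p under 0.05. With scaling by total counts, which moved the median of all genes by -0.36 on the log2 scale, 8 members were lower and Ms4a8a stayed higher.

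**Figure D1:**
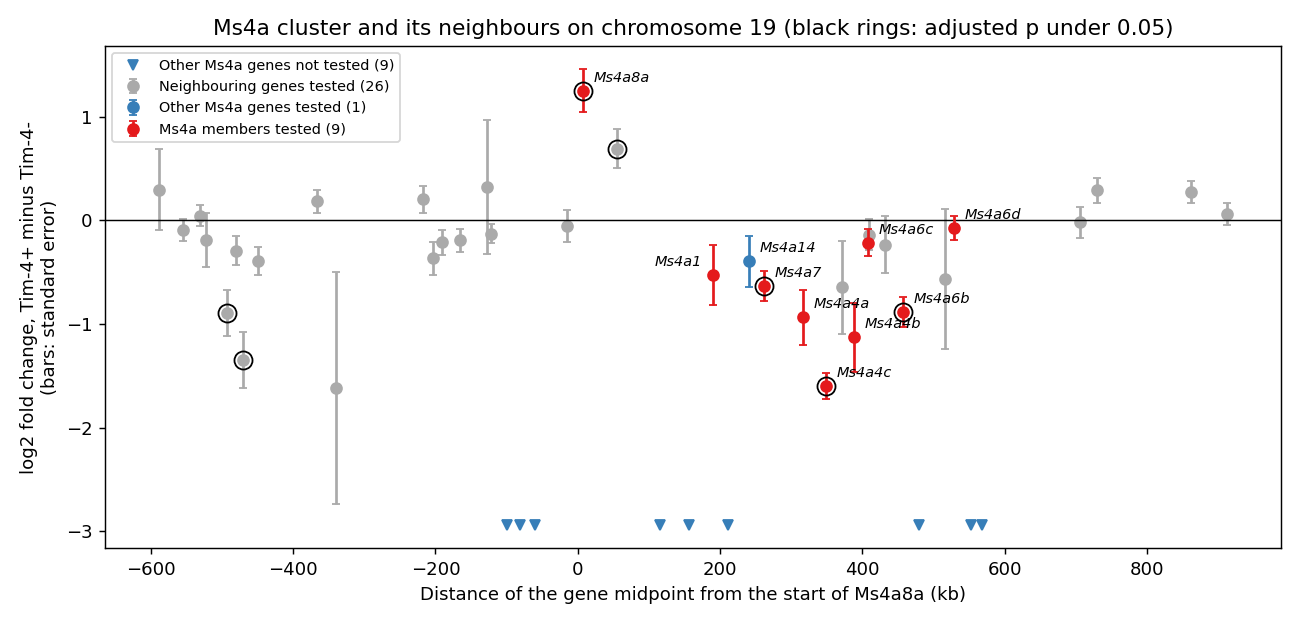
Log2 fold change (Tim-4+ minus Tim-4- TAMs, y axis) of the tested genes against the distance of the gene midpoint from the start of Ms4a8a in kb (x axis). Bars are standard errors, black rings mark an adjusted p under 0.05, and blue triangles mark the 9 other Ms4a genes that were not tested. Ms4a8a stands at 1.25 as the leftmost member, Ms4a4c lies lowest among the members at -1.60, and Ms4a6d lies near 0.

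Ms4a8a (ENSMUSG00000024730.7, chr19:11067471-11081102, minus strand) is known from alternatively activated and tumor-associated macrophages. It was at 222, 209, 135 and 289 CPM in the Tim-4+ TAMs of pairs 793, 784, 783 and 779. In the Tim-4- TAMs of the same pairs it was at 129, 54.6, 77.4 and 102 CPM. Every Tim-4+ library lay above every Tim-4- library, as in 6.84% of all genes. The means were 214 ± 63.3 and 90.9 ± 32.1 CPM (SD, n = 4), a fold of 2.38, with a log2 fold change of 1.25 (SE 0.21, adjusted p = 0.0128, edgeR), and it was higher in 4 of 4 pairs, as were 22.4% of all genes. The difference was widest in pair 784 (log2 ratio 1.94) and narrowest in pair 793 (0.78). Without pair 784 its log2 fold change was 1.02 (adjusted p = 0.0623, edgeR), and without pair 779 it was 1.16 (adjusted p = 0.0702, edgeR). The call was lost in each of these fits, where fewer of all genes were called too. Over all genes, 78 were higher without pair 784 and 445 without pair 779, against 1512 with all 4 pairs.

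The gene whose pattern over the 8 libraries was most like that of Ms4a8a was Klhl6, with a root-mean-square difference of 0.162 between log2 levels centred on each gene's mean, followed by Smpdl3a at 0.163. Their log2 fold changes were 1.03 and 1.29, and since the likeness was taken over both subsets, their direction follows from the choice. The closest member, Ms4a6c, differed from it by 0.925.

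Ms4a4c (ENSMUSG00000024675.19, chr19:11404770-11427246, plus strand), a transcript known to be abundant in Ly6C-high monocytes, had the largest fold change of the members. It was at 3.63, 37.7, 4.91 and 11.5 CPM in the Tim-4+ TAMs of pairs 793, 784, 783 and 779. In the Tim-4- TAMs it was at 11.3, 102, 13.3 and 42.4 CPM. It was lower in Tim-4+ TAMs in 4 of 4 pairs, as were 20.2% of all genes, while the subsets overlapped because the pairs lay far apart. The highest Tim-4+ library stood 10.4-fold above the lowest, and the highest Tim-4- library 9.11-fold above the lowest, ratios above those of 93.5% and 94.5% of the genes tested. Within a pair the log2 ratio held between -1.88 and -1.43, and the fold was 3.03 (log2 fold change -1.60, SE 0.13, adjusted p = 0.00239, edgeR). Leaving out each pair in turn gave -1.66 to -1.50, below the threshold each time.

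Of the monocyte markers, Ly6c2 and Ccr2 are given beside Ms4a4c. Ly6c2, which encodes the monocyte antigen Ly6C, was at 0.126, 1.42, 0.475 and 0.333 CPM in the Tim-4+ TAMs of pairs 793, 784, 783 and 779 and at 0.749, 19.1, 1.91 and 6.70 CPM in the Tim-4- TAMs. Ly6c2 was, like Ms4a4c, highest in pair 784 and lowest in pair 793 in each subset. Ccr2, the chemokine receptor of inflammatory monocytes, was at 10.5, 5.94, 15.9 and 11.8 CPM in the Tim-4+ TAMs and at 141, 115, 142 and 114 CPM in the Tim-4- TAMs. Ccr2 did not share that order, since it was lowest in Tim-4+ TAMs 784, where Ms4a4c was highest among the Tim-4+ libraries. Of 8 monocyte markers 4 were lower and the other 4 did not pass. Over all 8, the summed level of 1351, 725, 3448 and 901 CPM in the Tim-4+ TAMs and 2296, 1324, 2936 and 1165 CPM in the Tim-4- TAMs peaked in pair 783, not in pair 784. The part of monocytes in the Ms4a4c values was not tested, and in such bulk samples fewer cells of a type and less RNA per cell cannot be told apart. The genes most like Ms4a4c were Chst11 (root-mean-square difference 0.293) and Osmr (0.508).

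**Figure D2:**
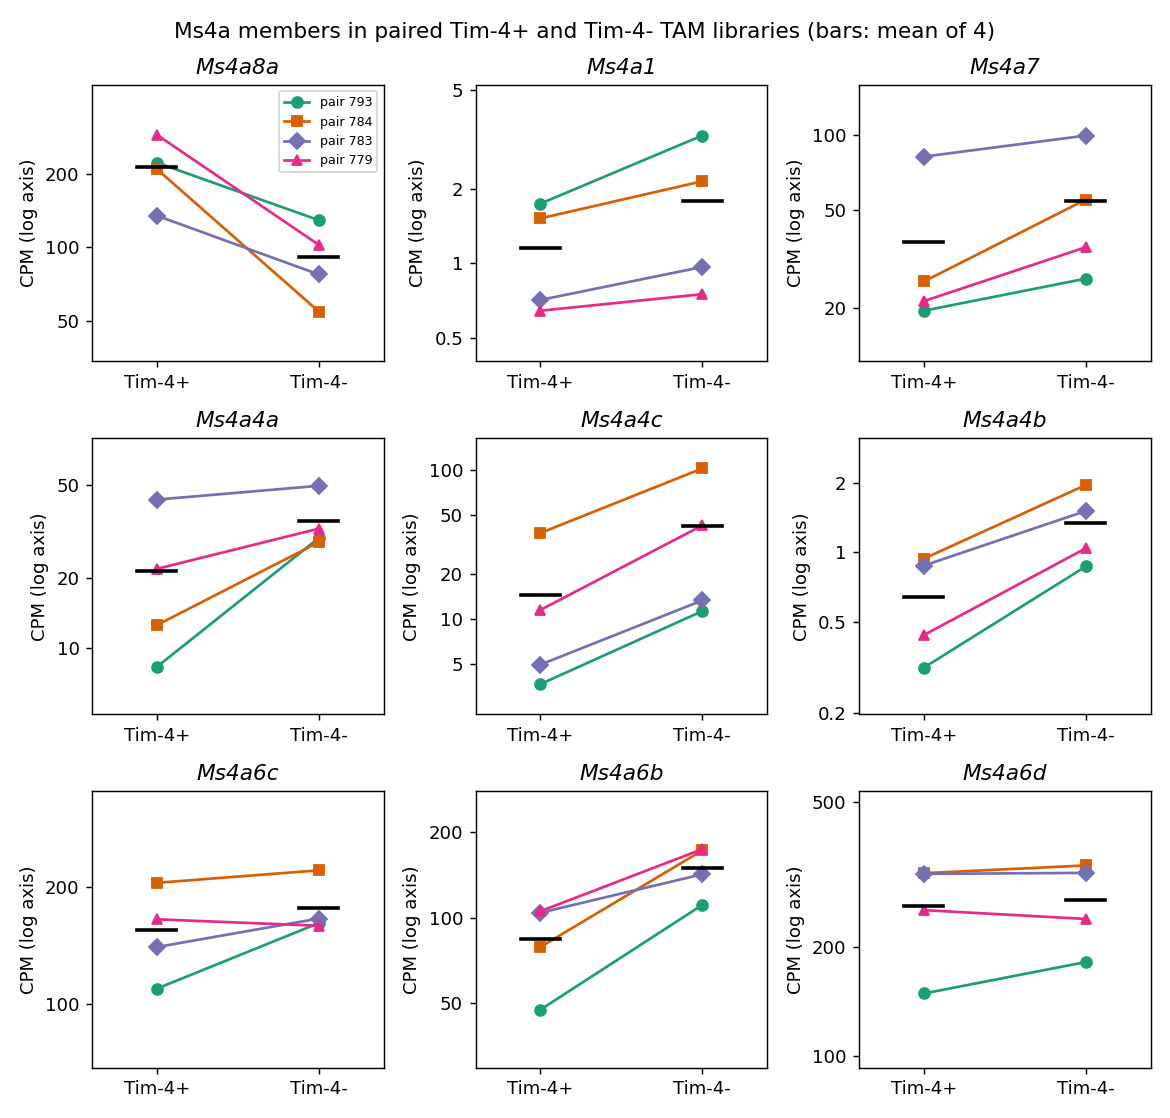
CPM (log y axis) of each member in the Tim-4+ and Tim-4- library of each pair, joined by lines, with black bars at the mean of 4 libraries. Lines fall to the right for Ms4a8a in all 4 pairs and rise for Ms4a4c, whose pairs are spread from 3.63 to 102 CPM.

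Ms4a4b (ENSMUSG00000056290.15, chr19:11443553-11467055, plus strand), the neighbour and close copy of Ms4a4c, is known from T cells. It had only 15 to 48 counts in Tim-4+ libraries and 58 to 144 counts in Tim-4- libraries. Its level was 0.315, 0.940, 0.877 and 0.437 CPM in Tim-4+ TAMs compared with 0.869, 1.97, 1.52 and 1.04 CPM in the Tim-4- subset of pairs 793, 784, 783 and 779. The value was lower in Tim-4+ TAMs in 4 of 4 pairs, with a log2 fold change of -1.13 (SE 0.33, adjusted p = 0.0525, edgeR) that did not pass. It did pass in DESeq2 with the pair block (adjusted p = 0.0098). T and NK cell markers were scarce, with a summed level of 2.08 to 4.53 CPM in Tim-4+ TAMs compared with 6.58 to 13.9 CPM in the Tim-4- subset. Cd3e was at 0 to 12 counts in Tim-4+ libraries and 1 to 20 counts in Tim-4- libraries, Ncr1 never exceeded 3 counts in any library, and of the 5 markers tested 1, Cd4, was lower. Their part in the Ms4a4b values was not tested.

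Ms4a4a (ENSMUSG00000101389.1, chr19:11375523-11392790, plus strand) is a macrophage surface protein that associates with Dectin-1. It was at 8.34, 12.6, 43.3 and 21.9 CPM in the Tim-4+ TAMs of pairs 793, 784, 783 and 779. In the Tim-4- TAMs it was at 29.7, 28.5, 49.7 and 32.6 CPM. Tim-4+ TAMs of pair 783 lay above 3 of the 4 Tim-4- libraries, so the subsets overlapped, although each pair was lower in Tim-4+ TAMs. The ratio ran, on the log2 scale, from -1.83 in pair 793 to -0.20 in pair 783, and the log2 fold change of -0.94 (SE 0.26, adjusted p = 0.0545, edgeR) did not pass. Without pair 783 it was -1.20 and passed (adjusted p = 0.0036, edgeR).

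Ms4a7 (ENSMUSG00000024672.11, chr19:11321039-11336146, minus strand), a transcript known from tissue macrophages, was the least changed of the 3 that fell. It was at 19.6, 25.7, 81.9 and 21.4 CPM in the Tim-4+ TAMs of pairs 793, 784, 783 and 779. In the Tim-4- TAMs it was at 26.4, 55.0, 99.6 and 35.3 CPM. Pair 783 stood above the others in both subsets, and each pair was lower in Tim-4+ TAMs. Ms4a7 had a log2 fold change of -0.63 (SE 0.15, adjusted p = 0.0263, edgeR), a fold of 1.55. Without pair 779, 784 or 793 the adjusted p was 0.101, 0.0978 and 0.0689 (edgeR). Ms4a14, which lies beside Ms4a7 and is not among the 9, was also highest in pair 783, at 23.5 and 24.0 CPM in its Tim-4+ and Tim-4- library against 3.72 to 11.2 CPM elsewhere, and did not pass (log2 fold change -0.39, adjusted p = 0.305, edgeR). The summed monocyte markers, most of them from F13a1, were highest in pair 783 too, at 3448 CPM in the Tim-4+ subset and 2936 CPM in the Tim-4- subset. Rap2a had the pattern most like that of Ms4a7 (root-mean-square difference 0.269), ahead of Zkscan7 (0.271), and its closest member was Ms4a4a (0.522).

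Of the 3 Ms4a6 members, described mostly in myeloid cells and T cells, Ms4a6b passed the test and Ms4a6c and Ms4a6d did not. Ms4a6b (ENSMUSG00000024677.13, chr19:11516512-11531256, plus strand) was at 47.3, 78.7, 104 and 105 CPM in the Tim-4+ TAMs of pairs 793, 784, 783 and 779. In the Tim-4- TAMs it was at 111, 172, 142 and 174 CPM. Every Tim-4+ library lay below every Tim-4- library, as in 5.92% of all genes. The means were 83.8 ± 27.2 and 149.8 ± 29.9 CPM (SD, n = 4), with a log2 fold change of -0.88 (SE 0.15, adjusted p = 0.0111, edgeR). Without pair 784 it was -0.80 (adjusted p = 0.0744, edgeR).

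Ms4a6d (ENSMUSG00000024679.10, chr19:11586604-11604849, minus strand), described as a partner of the complement receptor Vsig4, was at 149, 319, 318 and 252 CPM in the Tim-4+ TAMs and at 182, 335, 319 and 239 CPM in the Tim-4- TAMs of pairs 793, 784, 783 and 779. The subsets overlapped almost wholly, and pair 793 was the lowest in both. Its log2 fold change was -0.07 (SE 0.12, adjusted p = 0.709, edgeR). Ms4a6c (ENSMUSG00000079419.4, chr19:11469366-11482192, plus strand) was at 110, 206, 140 and 166 CPM in the Tim-4+ TAMs and at 162, 221, 166 and 159 CPM in the Tim-4- TAMs. It was lower in 3 of 4 pairs, with a log2 fold change of -0.21 (SE 0.13, adjusted p = 0.281, edgeR). The antisense gene BE692007 covers 53.1% of the exon bases of Ms4a6c, and whether the counting used strand is not given in the sources used here, so the Ms4a6c values are uncertain. BE692007 itself had a mean of 17.2 CPM and did not pass (log2 fold change -0.14, adjusted p = 0.561, edgeR).

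Within each pair, the log2 ratio of Ms4a6b lay below that of Ms4a6c, by 0.67 on average, and below that of Ms4a6d, by a mean difference of -0.81, in 4 of 4 pairs each. Ms4a6c lay below Ms4a6d by a mean difference of -0.14 (4 of 4 pairs), and Ms4a4b lay above Ms4a4c by 0.50 (4 of 4 pairs). The exact two-sided sign-flip test over 4 pairs gave p = 0.125 for each of the 4 comparisons (adjusted p = 0.125, exact). That is the smallest p that 4 pairs allow, so the test could not pass whatever the values were. It therefore cannot decide whether these members differ, and only the direction, shared by all 4 pairs in each comparison, is reported.

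Ms4a1 (ENSMUSG00000024673.9, chr19:11249675-11266241, minus strand) was at 1.74, 1.52, 0.713 and 0.645 CPM in the Tim-4+ TAMs of pairs 793, 784, 783 and 779. In the Tim-4- TAMs it was at 3.28, 2.15, 0.968 and 0.752 CPM. Pair 793 was the highest and pair 779 the lowest in both subsets, and the log2 fold change of -0.53 (SE 0.29, adjusted p = 0.249, edgeR) did not pass. Of 11 B cell markers tested of 14, 1 was higher (Bank1) and 3 were lower (Cd79b, Blk and Ighm). Their summed level was 56.3 to 107 CPM in Tim-4+ TAMs compared with 68.3 to 97.5 CPM in the Tim-4- subset, and their part in the Ms4a1 values was not tested.

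**Figure D3:**
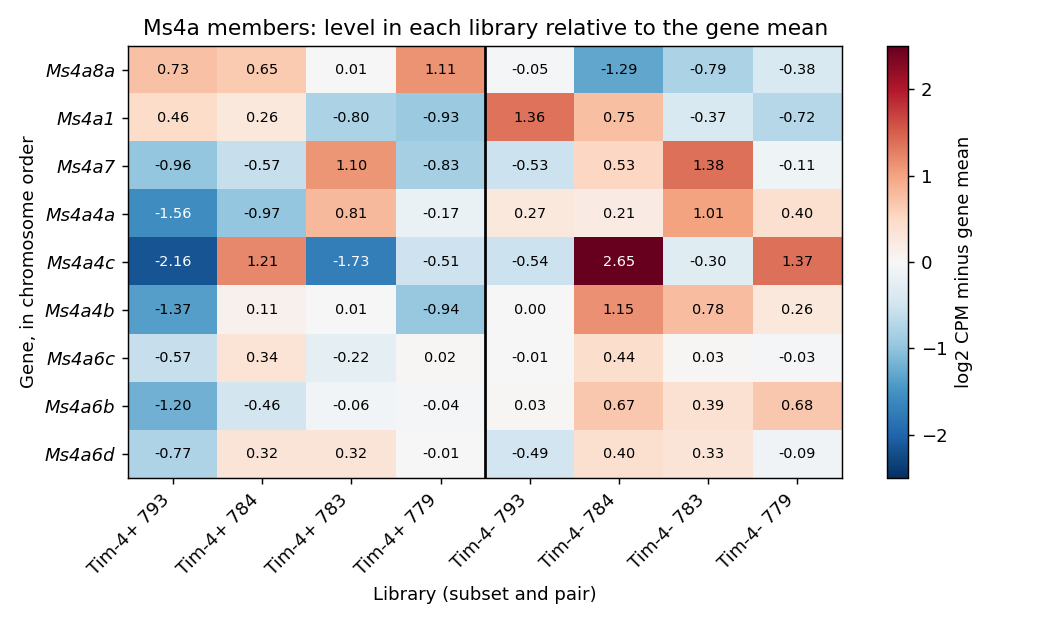
Log2 CPM of each member in each library minus the gene's mean over the 8 libraries (color scale), with genes in chromosome order and libraries by subset and pair. Ms4a4c ranges from -2.16 in Tim-4+ 793 to 2.65 in Tim-4- 784, whereas Ms4a6c and Ms4a6d stay between -0.77 and 0.44.

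The pairs differed from one another in most members. In 5 members, Ms4a1, Ms4a7, Ms4a4c, Ms4a4b and Ms4a6d, the 4 pairs stood in the same order in both subsets, as in 13.7% of all genes. The order itself was not shared, since pair 793 was the highest for Ms4a1 and the lowest for Ms4a7, Ms4a4c, Ms4a4b and Ms4a6d in each subset. The median ratio of the highest to the lowest library was 2.70 in Tim-4+ TAMs, and 2.26 in the Tim-4- subset over the members, and 1.84 and 1.85 over all genes tested. Among the members, Ms4a6c and Ms4a6d had the most alike patterns (root-mean-square difference 0.285), and Ms4a4b and Ms4a6b followed at 0.466. Over all genes tested, the most alike patterns, with their root-mean-square differences, were those of Gm17092 (0.322) and Spin4 (0.335) for Ms4a1, Zfp940 (0.282) and Gm5976 (0.295) for Ms4a4a, and Zfp780b (0.154) and Gm12216 (0.157) for Ms4a6b. They were those of Ubox5 (0.103) and Gm37637 (0.105) for Ms4a6c, and of BE692007 (0.138) and Gm43190 (0.160) for Ms4a6d.

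Levels of different members were compared per kb of merged exon. The merged length joins all annotated transcripts and ran from 836 bases in Ms4a4a to 8780 in Ms4a4b, so the order depends on the annotation. Before division by length, Ms4a6b (mean 117 CPM over the 8 libraries) lay above Ms4a4a (28.3 CPM). In Tim-4+ TAMs the order was Ms4a6d (149 CPM per kb), Ms4a8a (119), Ms4a6c (75.7), Ms4a4a (25.8), Ms4a6b (18.7), Ms4a7 (8.34), Ms4a4c (8.24), Ms4a1 (0.187) and Ms4a4b (0.0731). The ranges of 4 libraries were apart between Ms4a6c and Ms4a4a and between Ms4a4c and Ms4a1, and overlapped between all other neighbours in that order. In Tim-4- TAMs the order was Ms4a6d (155 CPM per kb), Ms4a6c (86.4), Ms4a8a (50.6), Ms4a4a (42.0), Ms4a6b (33.4), Ms4a4c (24.2), Ms4a7 (12.1), Ms4a1 (0.289) and Ms4a4b (0.154). There the ranges were apart between Ms4a6c and Ms4a8a and between Ms4a7 and Ms4a1. Ms4a8a thus made up 29.4% of the summed level per kb in Tim-4+ TAMs and 12.5% in the Tim-4- subset. The summed level of the 9 members, in CPM, was 787 ± 153 in Tim-4+ TAMs and 821 ± 135 in the Tim-4- subset (SD, n = 4).

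**Figure D4:**
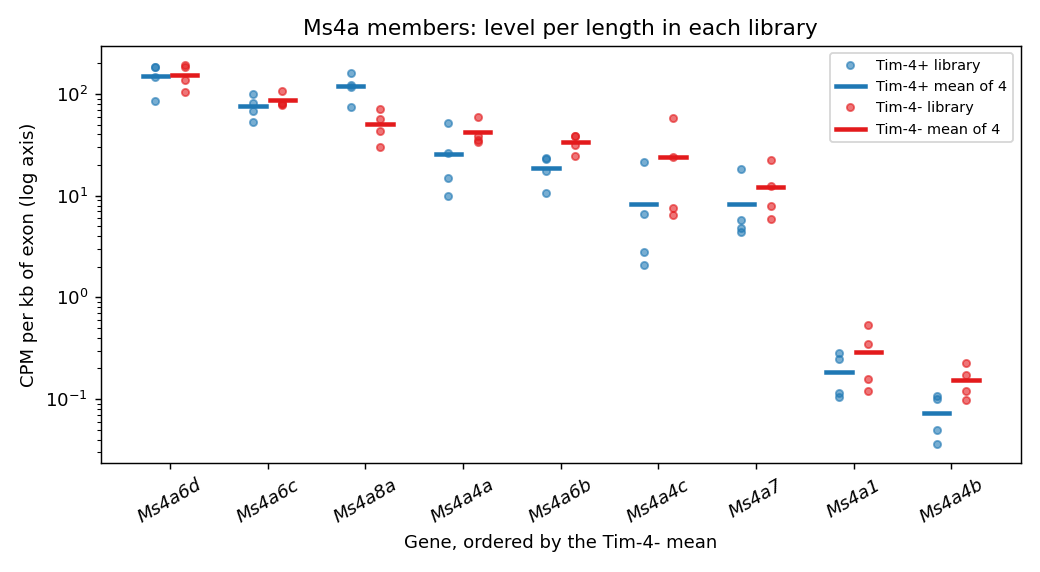
Level of each member in CPM per kb of exon (log y axis) in each Tim-4+ (blue) and Tim-4- (red) library, with bars at the mean of 4 libraries, ordered by the Tim-4- mean. Ms4a1 and Ms4a4b lie below 1 in all 8 libraries, and the Tim-4+ points of Ms4a8a lie above its Tim-4- points.

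Reads can be split between close copies only where the copies differ. The coding sequences of Ms4a4b and Ms4a4c were identical at 622 of 678 bases (91.7%). Ms4a6b was identical to Ms4a6c at 86.4% and to Ms4a6d at 81.8% of aligned coding bases, and Ms4a6c to Ms4a6d at 79.6%. Of all 50-base words in the transcripts of a member, 8.19% were shared with another Ms4a gene in Ms4a4c, 5.85% in Ms4a6c, 3.44% in Ms4a6b, 2.31% in Ms4a6d and 2.24% in Ms4a4b. Ms4a1, Ms4a4a, Ms4a7 and Ms4a8a shared 0 words with another Ms4a gene. Reads that align to several places were not counted, so the levels of the sharing members are uncertain. These shares count exact words over all annotated transcripts, so they do not measure the size of that uncertainty.

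Of the 10 other Ms4a genes of the cluster, Ms4a14 was the 1 that could be tested. Ms4a2, Ms4a5, Ms4a10, Ms4a12, Ms4a13, Ms4a15 and Ms4a18 had at most 3 counts in every library, Ms4a4d at most 9, and Ms4a3 at most 13, the highest in Tim-4- TAMs 784. The related genes Tmem176a and Tmem176b did not pass (log2 fold changes -0.38 and -0.17, adjusted p = 0.064 and 0.399, edgeR). Of 69 annotated genes within 500 kb of the cluster that are no Ms4a gene, 26 were tested, 1 was higher (Gm6501, a processed pseudogene, log2 fold change 0.69) and 2 were lower (Tmem138 at -0.89 and Tkfc at -1.34). The Gm6501 call, at an adjusted p of 0.0434 (edgeR), was lost without any 1 of the 4 pairs, with either lane alone, without the count filter and with total counts (0.34), and those of Tmem138 and Tkfc without pair 779, 784 or 793.

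A list of 8 genes held receptors, adaptors and signaling enzymes known as partners of Ms4a proteins or of the complexes they sit in. Of these, 6 were tested, of which 2 were higher in Tim-4+ TAMs and 4 did not pass. The adaptors Tyrobp and Fcer1g, which carry signaling motifs for immune receptors, were the 2 that rose, with log2 fold changes of 0.84 (SE 0.19, adjusted p = 0.0238, edgeR) and 0.67 (SE 0.13, adjusted p = 0.0161, edgeR). With scaling by total counts Fcer1g was at 0.31 (adjusted p = 0.0555, edgeR), and both calls were lost without pair 779, 784 or 793 (adjusted p = 0.0551 to 0.1224, edgeR). Clec7a, which encodes Dectin-1, was at 600 CPM in the Tim-4+ subset and 468 CPM in the Tim-4- subset and did not pass (log2 fold change 0.43, adjusted p = 0.174, edgeR). The kinase Syk (0.56, adjusted p = 0.0595, edgeR), Plcg2 (0.31, adjusted p = 0.136, edgeR, and -0.05 with scaling by total counts) and Tnfrsf18, which encodes GITR (-0.53, adjusted p = 0.355, edgeR), did not pass either. Trem2 had 2 to 15 counts and Fcer1a 0 to 33 counts per library, and neither was tested.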

How the data were processed

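The authors prepared ribosome-depleted stranded total RNA libraries, sequenced each in 2 lanes, and deposited unnormalized read counts, 1 file for each of 16 lanes. The submitters' processing notes name FastQC 0.11.3, TopHat2 2.0.13, Cufflinks and Cuffdiff 2.2.1, the counter is not given in the sources used here, and the study's methods name hg19 although the identifiers are of the mouse. Reads aligned to several places were set aside by the authors, and their number differed between the lanes of Tim-4- TAMs 779 (10020232 and 3153643). Summary lines (reads not assigned to a gene, ambiguous or not unique) were kept out of library sizes and tests. Ambiguous reads came to 4.88% to 5.62% of the counts in genes.

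Of 55604 identifiers, 98.6% were found in GENCODE M21 (GRCm38). Lane 1 of Tim-4- TAMs 793 carries symbols in place of identifiers and was joined by order, where 96.9% of the symbols matched, as did all 9 members. The lanes of a library differed by a chi-square of 2.29 to 2.42 per degree of freedom and were summed into 1 replicate. A gene entered the test with 10 or more counts in 4 or more of the 8 libraries. Testing used edgeR 4.0.16 in R 4.3.3 (TMM factors, robust quasi-likelihood fit, pair as a block), and p-values were adjusted by Benjamini-Hochberg over 16861 genes. The standard error is the log2 fold change divided by the square root of F. CPM is TMM-scaled. Intervals and floors cover counting error only.

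The numbers in the labels pair the subsets. Deviations of same-numbered libraries from their subset means correlated at r = 0.277 to 0.498 across genes (mean 0.414), above 0.1 in all 4 pairs.

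The members, marker lists and partner list were chosen with earlier results of these data known. Text values cover all 9 members, the other Ms4a genes, the partners, the 2 most alike genes of each member averaging 1 CPM or more, and neighbouring genes that passed. The values of Ly6c2, Cd3e and Ncr1 were picked as defining markers, and 1 marker is not reported here. Levels per kb used merged GENCODE exons. Coding sequences were aligned globally (Biopython 1.88) in place of proteins, which were not used here. Promoters are from RefSeq. Alternatives were DESeq2 1.42.0, other scalings, filters, lanes, no block and each pair left out.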

Additional observations from a re-analysis of the deposited data

Results flagged for a closer look

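In 18 groups of 4 libraries, 9 members in each subset, the highest and the lowest library were compared with the range of the group, and chance marks about 1 in 20 such groups. The level of Ms4a7 in the Tim-4+ TAMs of pair 783 was 81.885 CPM, far above the other 3 libraries at 19.6 to 25.7 CPM, with a gap of 0.902 of the range, past Dixon's 95% critical value for 4 samples. The level of Ms4a6c in the Tim-4- TAMs of pair 784 was 221.478 CPM, above the other 3 at 159 to 166 CPM, with a gap of 0.888 of the range. Both gaps were taken on CPM, so the flags hold for that scale only. On log2 CPM the Tim-4+ libraries of Ms4a7 lay at 4.30, 4.69, 6.36 and 4.42 in pairs 793, 784, 783 and 779, and the comparison was not run.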

How the results depend on the processing

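Ms4a4c passed as lower under every alternative tried except the fit without the pair block. Without the replicate block, 0 members were higher and 0 lower (edgeR, with 1 and 2 at an unadjusted p under 0.05), and over all genes 147 were higher and 85 lower. With scaling by total counts, 8 members were lower, and 789 of all genes were higher and 4906 lower. In DESeq2 with the pair block, 5 members were lower, Ms4a4a and Ms4a4b being added, and 2323 of all genes were lower. Leaving out each pair in turn gave 0 to 1 members higher and 1 to 4 lower, and 78 to 1573 of all genes higher and 54 to 1895 lower. No member was higher without pair 779 or 784 (edgeR, Ms4a8a at an unadjusted p under 0.05 in both), and 1 was lower without pair 784. Over all genes, 445 were higher and 328 lower without pair 779, 78 and 54 without pair 784, and 719 and 470 without pair 793. The cause of these shifts was not tested.

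The following values that had not passed changed sign: Plcg2 with total counts (-0.053), Gm43190, the gene second most like Ms4a6d, without pair 783 (0.0034, range -0.3003 to 0.0034 over the 4 pairs left out in turn), and, without pair 793, Ms4a6d (0.0041, range -0.1279 to 0.0041) and Gm37637, second most like Ms4a6c (0.0369, range -0.2772 to 0.0369). With at least 50 counts in 4 libraries Ms4a4b passed as well, and with lane 1 alone Ms4a4a did. DESeq2 size factors, lane 2 alone, no count filter, and the symbol-listed lane left out or joined by symbol changed no member's call. Depth limits Ms4a1 and Ms4a4b most, at 15 to 219 counts per library.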
